A study of Mus musculus with 11 samples.

Results

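The genes that encode the receptors for GABA, glycine and glutamate were described across normal mouse brain and brain tumors driven by NRAS or by PDGFB. A gene was included when its symbol named a subunit of a GABA-A, GABA-B, glycine, AMPA, kainate, NMDA or delta receptor or a metabotropic glutamate receptor, so no measured value entered the choice. The rule found 52 genes among the 24347 rows of the table. They were 19 GABA-A, 2 GABA-B, 5 glycine, 4 AMPA, 5 kainate, 7 NMDA, 2 delta and 8 metabotropic receptor genes. In every library 8 of the 52 stayed below 1 FPKM and were taken as not expressed: Gabra6, Gabrp, Gabrr1, Gabrr2, Gabrr3, Glra4, Grin3b and Grm6. FPKM is the number of fragments of a gene per length of transcript and per size of the library. Gabre and Glra1 reached 1 FPKM in too few libraries to be tested. The other 42 were tested.

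Tumors had been made with Sleeping Beauty, a transposon that is cut from a plasmid and pasted into host chromosomes. The right lateral ventricle of newborn mice had received plasmids for the transposase, firefly luciferase and SV40 large T antigen (SV40LgT), an inhibitor of p53 and Rb, together with either NRASG12V, a small GTPase locked in its active state, or the growth factor PDGFB. All tumors thus carried large T antigen, and the 4 NRAS tumors differed from the 4 PDGFB tumors in the oncogene. Normal brain, labelled as wild type control, gave 3 libraries. The series text names FVB mice, whereas the labels name B6 for every library but normal brain 3, which is labelled FVB. By their titles, normal brain 1 was matched with NRAS tumor 2, and normal brain 3 with PDGFB tumor 1. Tumor tissue was taken in mid-stage by its GFP signal, and the brain region that gave the normal tissue is not stated. Since nothing says that replicates were separate animals, p-values measure only the spread between these samples.

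Receptors of this kind turn the release of a transmitter into a current or a second messenger. GABA-A and glycine receptors are chloride channels and mediate fast inhibition, while AMPA, kainate and NMDA receptors are cation channels and carry fast excitation. GABA-B and metabotropic glutamate receptors signal through G proteins. Neurons are the main site of most of these subunits, but glia use some of them too: oligodendrocyte progenitors carry AMPA, kainate and GABA-A receptors and receive synapses from neurons, and astrocytes carry metabotropic receptors.

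The deposited values hold no read totals, so depth in reads is unknown. Relative depths read from the steps between low values ran from 0.776 to 1, and 12705 to 13923 genes reached 1 FPKM in a library. Marker genes were summed in FPKM per library to show the cell types behind each group. The 10 neuron markers summed to 3272 to 3771 in normal brain, 387 to 1588 in NRAS tumors and 299 to 929 in PDGFB tumors. The 9 markers of oligodendrocyte progenitors summed to 139.8 to 223, 173 to 852 and 1461 to 1749, and the 8 astrocyte markers to 897 to 1001, 343 to 679 and 117 to 380.1. Of the progenitor markers 4 rose and 0 fell in NRAS tumors, and 6 rose and 1 fell in PDGFB tumors. Of the astrocyte markers 4 fell in NRAS tumors and 6 in PDGFB tumors, and 0 rose in either. The 8 markers of myelinating oligodendrocytes summed to 2382 to 7222 in normal brain, 316 to 1556 in NRAS tumors and 239 to 2209 in PDGFB tumors, and all 8 fell in both models. The 8 markers of microglia and macrophages summed to 97.4 to 121, 208 to 508 and 43.3 to 134.7. Of these 6 rose and 0 fell in NRAS tumors, and 1 rose and 1 fell in PDGFB tumors. The 5 genes of dividing cells summed to between 1.02 and 1.73 in normal brain, 71.3 to 283 in NRAS tumors and 257 to 445 in PDGFB tumors. None of these markers was listed at 0. NRAS tumor 2, at 1588, had the highest neuron sum of the tumors, and PDGFB tumor 2, at 299, the lowest. In bulk tissue fewer cells of a type and less RNA per cell cannot be told apart, and the part of cell makeup in the results below was not tested.

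**Figure D1:**
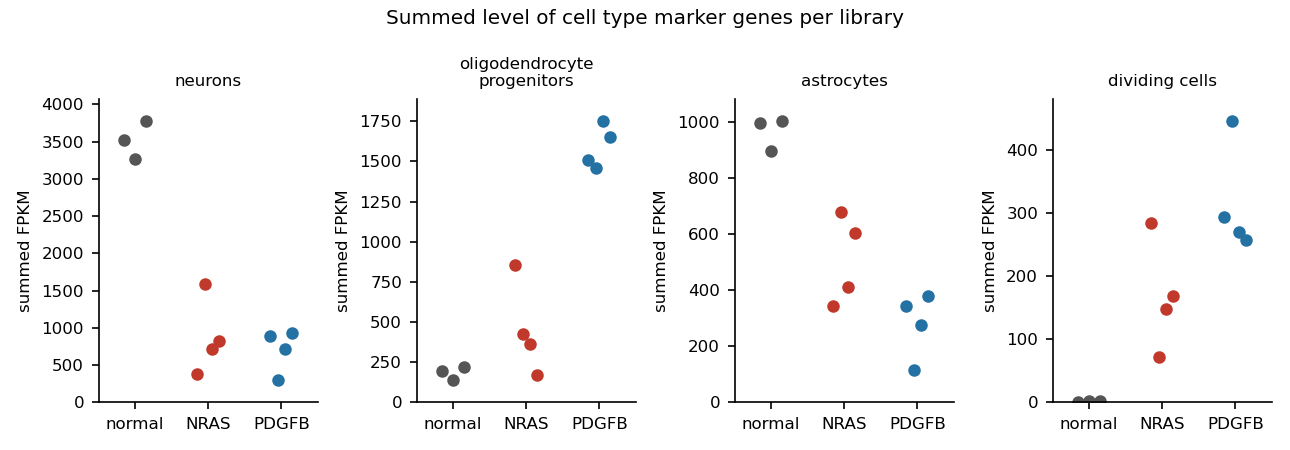
Summed FPKM of fixed marker genes of neurons, oligodendrocyte progenitors, astrocytes and dividing cells (y axis, linear from 0) in each of the 11 libraries (points, by group). The neuron sum is at least 3272 in each normal brain and at most 1588 in a tumor, while the progenitor sum is at least 1461 in the 4 PDGFB tumors and at most 852 elsewhere.

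Most receptor genes were lower in both tumor models than in normal brain. In NRAS tumors 40 of the 42 fell and 0 rose. Grik4 was 1 of the 2 that did not pass. Over all 14491 genes tested, 62.3% passed in either direction in this comparison, 30.3% were lower and 32% higher. The median log2 fold change of the 42 was -1.85, beside 0.01 over all genes tested. In PDGFB tumors 31 fell, 1 rose and 10 did not pass, where 58.5% of all genes passed, 29.2% lower and 29.3% higher. The median of the 42 was -1.90, beside 0.04 over all genes. Fold changes are on the log2(FPKM + 1) scale, which understates changes of low genes, and p-values are limma's, adjusted over all genes tested.

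Single libraries differed in extent. The median log2 difference of the 42 genes from the mean of normal brain ran from -2.39 in NRAS tumor 1 to -1.02 in NRAS tumor 2, and from -2.21 in PDGFB tumor 2 to -1.43 in PDGFB tumor 1. In NRAS tumors 1, 3 and 4 all 42 genes were below the lowest normal brain, and in NRAS tumor 2 this held for 35. In PDGFB tumors 1 to 4 it held for 34, 37, 32 and 39 genes, and 3, 3, 3 and 1 genes were above the highest normal brain. NRAS tumor 2 was the highest of its group for 36 of 42 genes, and PDGFB tumor 2 the lowest of its group for 27 of 42. All 4 NRAS tumors were below all 3 normal brains for 35 genes, where 31.9% of all genes showed this, and all 4 PDGFB tumors for 31, where 32% did. All NRAS tumors were above all normal brains for 0 genes (33.2% of all genes) and all PDGFB tumors for 1, Grik4 (33.8%). Without NRAS tumor 2, 41 of 42 fell in NRAS tumors, and without PDGFB tumor 2, 30 fell in PDGFB tumors. Normal brains 1 to 3 and NRAS tumors 1 and 2 carry title numbers 1834 to 1838 and the other tumors 2038 to 2046, and the labels do not say what these numbers mean. Within the first series 31 of 42 fell in NRAS tumors, and Gabra5, Gabrg1, Gria1, Gria3, Grik1, Grik3, Grm2 and Grm5 were among the calls lost. With the series as a covariate the NRAS calls of Gria1, Grik3, Grm2 and Grm5 were lost. Neither series joins normal brain with PDGFB tumors, so number series and group cannot be told apart there except through the NRAS tumors. With the series as a covariate 19 fell and 2 rose in PDGFB tumors, and the calls lost there included Gabra3, Gabrd, Gabrq, Gabbr2, Glrb, Grik2, Grin1, Grin2b, Grin2c, Grin3a and Grm2.

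**Figure D2:**
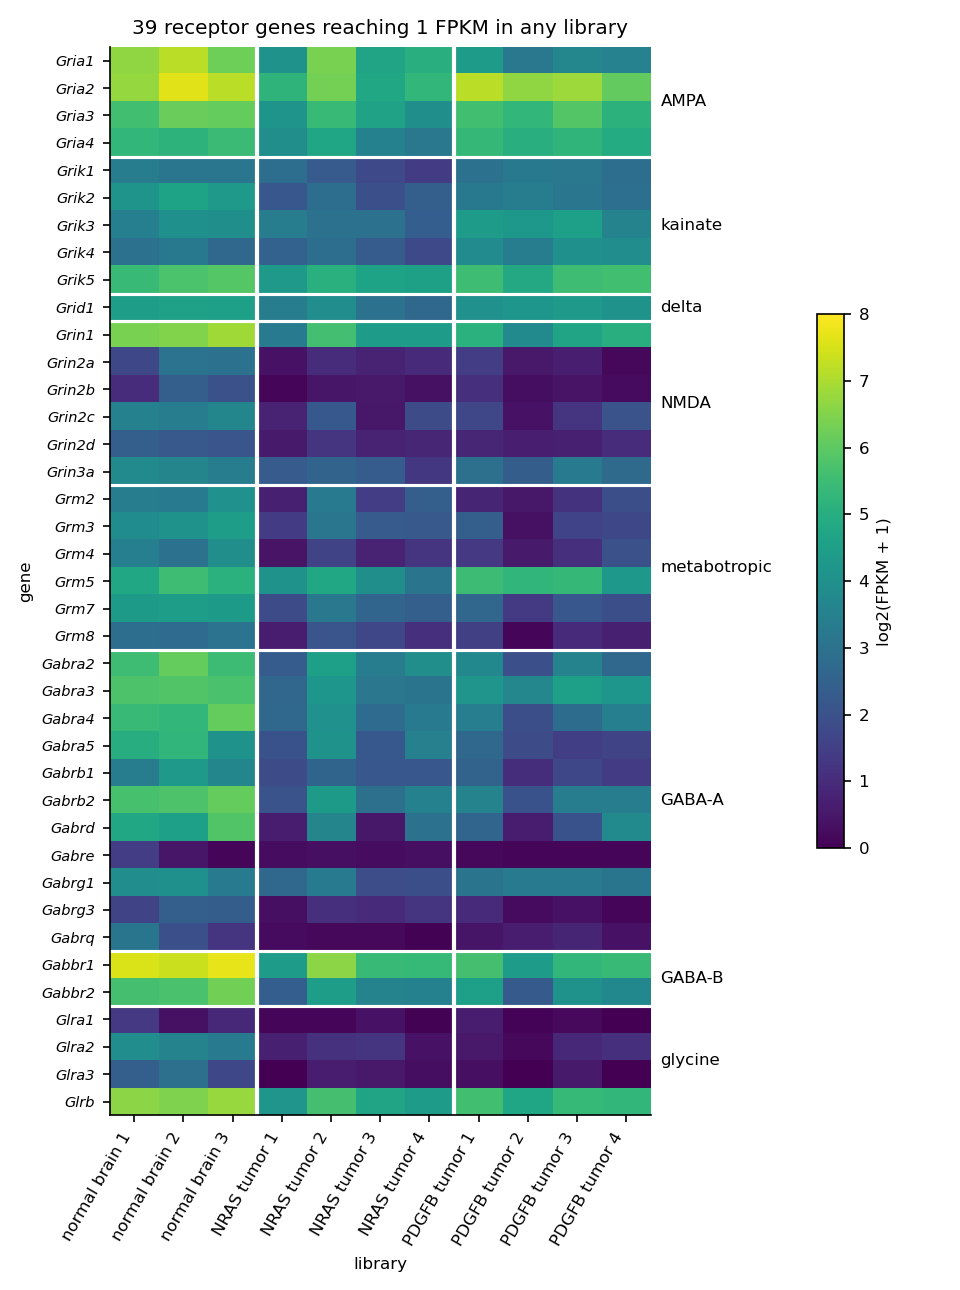
Level of 39 receptor genes that reached 1 FPKM in any library (rows, by receptor class) in each of the 11 libraries (columns), as log2(FPKM + 1) on a colour scale from 0 to 8. Most GABA-A, GABA-B and glycine rows are darker in both tumor groups than in normal brain, while Gria2, Gria3, Gria4, Grik1, Grik5, Grid1 and Grm5 lie nearer to normal brain in PDGFB than in NRAS tumors.

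The inhibitory side was lower in both models almost without exception. Of 18 GABA and glycine receptor genes tested, 18 fell in NRAS tumors and 17 in PDGFB tumors, and Gabrg1 was the 1 that did not pass in the latter. Among GABA-A alpha subunits, which set where the receptor sits and how it responds to benzodiazepines, Gabra2, Gabra3 and Gabra4 were below every normal brain in every tumor. Gabra4 (chr5:71569749-71658308, GRCm38), an alpha subunit of extrasynaptic receptors with the delta subunit, stood at 40.6, 38.1 and 68.3 FPKM in normal brains 1 to 3, 5.32, 15.5, 6.01 and 8.95 in NRAS tumors 1 to 4 and 9.704, 2.77, 6.16 and 9.83 in PDGFB tumors 1 to 4. All tumors were below all normal brains, and it fell in both models (NRAS -2.39 ± 0.42 SE, adjusted p = 0.000734; PDGFB -2.69 ± 0.42 SE, adjusted p = 0.000357). Gabra5, an alpha subunit typical of the hippocampus, was at 30.997, 37.1 and 16.005 FPKM in normal brains 1 to 3, 3.05, 16.4, 3.65 and 10.1 in NRAS tumors 1 to 4 and 5.31, 2.58, 1.83 and 2.15 in PDGFB tumors 1 to 4. NRAS tumor 2, at 16.4, lay above normal brain 3, while the PDGFB tumors were all below 6 FPKM and their log2 fold change was -2.87 ± 0.50 (adjusted p = 0.000725). In NRAS tumors it fell as well (-1.82 ± 0.50, adjusted p = 0.00896). Gabra2 stood at 43.96 to 67.8 FPKM in normal brain, 4.06 to 21.9 in NRAS tumors and 2.88 to 12.4 in PDGFB tumors, and fell in both (-2.15 and -2.71). Strain labels differ between the normal brains, and strain was not tested.

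Gabra3, the alpha subunit that is prominent in the immature brain, kept more of its level in PDGFB tumors. It stood at 53.1, 55.4 and 51.3 FPKM in normal brains 1 to 3, 5.21, 17.6, 7.95 and 7.44 in NRAS tumors 1 to 4 and 17.05, 11.98, 21.8 and 17.4 in PDGFB tumors 1 to 4. All tumors were below all normal brains, and the NRAS tumors 1, 3 and 4 were the lowest. It fell in NRAS tumors (-2.49 ± 0.31 SE, adjusted p = 0.000124) and in PDGFB tumors (-1.62 ± 0.31 SE, adjusted p = 0.00123). Between the models it was lower in NRAS tumors by a log2 difference of -0.87 ± 0.29 (adjusted p = 0.045), a call that was lost without any 1 of 9 libraries (adjusted p up to 0.122, without PDGFB tumor 3; it was kept only without NRAS tumor 2 or PDGFB tumor 2).

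The beta subunits carry part of the GABA binding site, and the gamma subunits anchor the receptor at synapses. Gabrb2 stood at 49.5, 53.7 and 68.8 FPKM in normal brains 1 to 3, 3.09, 19.3, 6.69 and 10.5 in NRAS tumors 1 to 4 and 10.9, 3.06, 9.52 and 9.53 in PDGFB tumors 1 to 4. The tumors were all below the normal brains (NRAS -2.64 ± 0.50 SE, adjusted p = 0.00112; PDGFB -2.76 ± 0.50 SE, adjusted p = 0.00084). Gabrb1 stood at 9.501 to 18.8 FPKM in normal brain, 2.603 to 4.91 in NRAS tumors and 1.05 to 4.81 in PDGFB tumors and fell in both (-1.60 and -2.12). Gabrg3, a minor gamma gene below 5 FPKM throughout, fell as well (-1.24 and -1.71).

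Gabrg1, a gamma subunit known from astrocytes and immature cells, stood at 14.1, 15.1 and 8.62 FPKM in normal brains 1 to 3, 5.39, 8.93, 2.71 and 2.75 in NRAS tumors 1 to 4 and 7.51, 8.59, 8.97 and 7.57 in PDGFB tumors 1 to 4. NRAS tumors 3 and 4 were the lowest, and NRAS tumor 2 and PDGFB tumor 3 lay just above normal brain 3. Gabrg1 fell in NRAS tumors (-1.29 ± 0.32 SE, adjusted p = 0.00545) and did not pass in PDGFB tumors (-0.54 ± 0.32 SE, adjusted p = 0.175). With only the groups compared it passed as lower in PDGFB tumors (adjusted p = 0.0394), and within the first number series the NRAS call was lost (adjusted p = 0.0994). The difference between the models did not pass (-0.75 ± 0.30 SE, adjusted p = 0.0893), although it did without NRAS tumor 2 (-1.03, adjusted p = 0.0081) and within title numbers 2038 to 2046 (-1.29, adjusted p = 0.00231). Gabrd, the delta subunit of extrasynaptic receptors, had the widest spread. It stood at 26.3, 21.7 and 55.3 FPKM in normal brains 1 to 3, 0.535, 11.6, 0.425 and 6.96 in NRAS tumors 1 to 4 and 5.07, 0.541, 3.06 and 13.1 in PDGFB tumors 1 to 4. Each tumor was below each normal brain, yet NRAS tumors 1 and 3 and PDGFB tumor 2 were under 1 FPKM while NRAS tumor 2 and PDGFB tumor 4 exceeded 11. It fell in NRAS tumors (-3.09 ± 0.87 SE, adjusted p = 0.00981) and in PDGFB tumors (-2.76 ± 0.87 SE, adjusted p = 0.0178), the latter not without normal brain 3 (adjusted p = 0.0729). Gabrq, the theta subunit, fell from 1.36 to 7.58 FPKM to below 1 FPKM in every tumor (-1.94 and -1.52). In the GRCm38 annotation Gabra4 overlaps Gabrb1 on chromosome 5 on the opposite strand, and Gabra5 overlaps another gene on chromosome 7. Whether the authors' counting used strand is not stated, so reads of the overlaps cannot be told apart.

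GABA-B receptors are obligate pairs of Gabbr1 and Gabbr2, of which the first binds GABA and the second couples to the G protein. Gabbr1 (chr17:37045966-37075067) was the most abundant receptor gene in normal brain. It stood at 186, 162 and 205 FPKM in normal brains 1 to 3, 20.1, 95.8, 40.7 and 40.4 in NRAS tumors 1 to 4 and 48.6, 19.9, 38.3 and 42.1 in PDGFB tumors 1 to 4. Normal brain and tumors did not overlap (NRAS -2.09 ± 0.43 SE, adjusted p = 0.00183; PDGFB -2.34 ± 0.43 SE, adjusted p = 0.000934). Gabbr2 stood at 49.3 to 77.7 FPKM in normal brain, 4.26 to 21.1 in NRAS tumors and 3.86 to 21.7 in PDGFB tumors and fell in both (-2.40 and -2.22). Gabbr1 held 72.5% to 79.1% of their sum in normal brain, 78.8% to 82.5% in NRAS tumors and 69.1% to 83.8% in PDGFB tumors. The ranges overlapped, but NRAS tumors 1, 2 and 4 and PDGFB tumor 2 lay above every normal brain. PDGFB tumors 1 and 3 lay below every normal brain.

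Of the glycine receptor genes, Glrb encodes the beta subunit that binds the scaffold gephyrin, and Glra2 the alpha subunit of the immature brain. Glra2 stood at 14.1, 10.9 and 8.93 FPKM in normal brains 1 to 3, 0.644, 1.18, 1.37 and 0.3101 in NRAS tumors 1 to 4 and 0.4704, 0.128, 0.903 and 1.17 in PDGFB tumors 1 to 4. No tumor reached 1.4 FPKM and no normal brain was under 8. It had the smallest adjusted p of the 42 genes in NRAS tumors (-2.73 ± 0.27 SE, adjusted p = 3.11e-05) and in PDGFB tumors (-2.90 ± 0.27 SE, adjusted p = 1.99e-05). Glra3 fell from 2.32 to 6.68 FPKM to 0.538 or less in every tumor (-1.996 and -2.13), and was listed at 0 in NRAS tumor 1 and PDGFB tumors 2 and 4. Glrb stood at 96.9, 86.3 and 107 FPKM in normal brains 1 to 3, 17.2, 48.8, 24.4 and 19.9 in NRAS tumors 1 to 4 and 46.3, 24.9, 39.9 and 38.1 in PDGFB tumors 1 to 4. It also fell in both (NRAS -1.89 ± 0.31 SE, adjusted p = 0.000545; PDGFB -1.38 ± 0.31 SE, adjusted p = 0.00302), but remained among the 5 most abundant receptor genes of each group. Beside these falls, the neuron sum was lower in every tumor than in every normal brain, as given above.

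**Figure D3:**
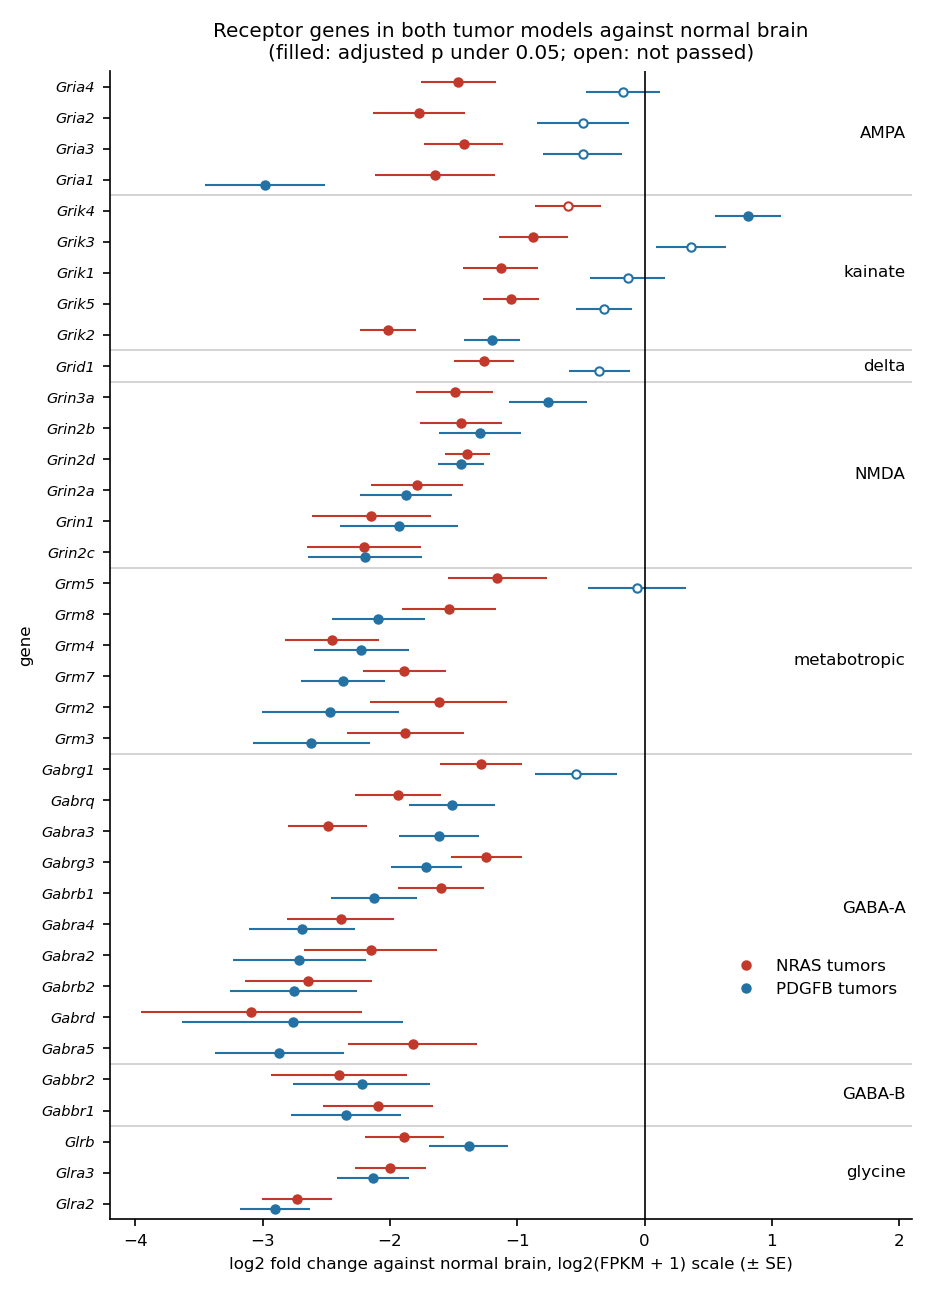
Log2 fold change of 37 tested receptor genes (rows, by class) against normal brain in NRAS tumors (red) and PDGFB tumors (blue), with SE as bars; filled points passed (adjusted p under 0.05) and open points did not. All but Grik4 are filled in NRAS tumors, and the open PDGFB points are 3 AMPA and 3 kainate genes with Grid1, Grm5 and Gabrg1.

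Calls of glutamate receptor genes in PDGFB tumors differed between classes and within some of them. Of 24 tested, 22 fell in NRAS tumors, and in PDGFB tumors 14 fell and 1 rose. AMPA receptors carry most fast excitation. Their calcium permeability is set by a single codon in the pore loop of the GluA2 subunit (Gria2), where the genome encodes glutamine and RNA editing by Adarb1 yields arginine. The coding stretch around that codon, in exon 11 of each gene, is shown to compare the 4 subunits whose levels differ below. It is from the GENCODE transcripts (GRCm38), 5′ to 3′ on the coding strand, with the glutamine codon in capitals.
Gria1: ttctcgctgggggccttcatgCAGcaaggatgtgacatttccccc
Gria2: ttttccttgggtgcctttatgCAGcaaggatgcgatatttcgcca
Gria3: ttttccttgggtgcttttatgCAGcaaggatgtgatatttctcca
Gria4: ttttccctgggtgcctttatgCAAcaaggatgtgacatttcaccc
These lie at chr11:57243073-57243117 (+), chr3:80706890-80706934 (-), chrX:41610244-41610288 (+) and chr9:4464116-4464160 (-). Of the 45 bases, Gria1, Gria3 and Gria4 share 36, 42 and 39 with Gria2. All encode glutamine at this place, by CAG in Gria1, Gria2 and Gria3 and by CAA in Gria4. The FPKM values hold no base calls, so editing was not measured. Adarb1 stood at 54.6, 40.4 and 77.4 FPKM in normal brains 1 to 3, 8.13, 19.2, 10.9 and 9.46 in NRAS tumors 1 to 4 and 16.3, 7.45, 10.8 and 14.5 in PDGFB tumors 1 to 4 and fell in both models (-2.20 and -2.14).

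Gria2, the AMPA gene with the highest mean in each group, stood at 104, 197 and 143 FPKM in normal brains 1 to 3, 36.02, 79.6, 26.2 and 38.1 in NRAS tumors 1 to 4 and 143, 101, 114 and 66.5 in PDGFB tumors 1 to 4. The NRAS tumors were all below the normal brains, and PDGFB tumors 1 and 3 lay within the normal range. Gria2 fell in NRAS tumors (-1.77 ± 0.36 SE, adjusted p = 0.00177) and did not pass in PDGFB tumors (-0.48 ± 0.36 SE, adjusted p = 0.278). Gria4, a subunit of interneurons and of progenitors, showed the smallest difference of the class in PDGFB tumors. It stood at 38.6, 34.8 and 43.2 FPKM in normal brains 1 to 3, 14.3, 25.7, 10.5 and 8.19 in NRAS tumors 1 to 4 and 39.6, 32.2, 36.7 and 29.6 in PDGFB tumors 1 to 4. PDGFB tumors 1 and 3 lay within the normal range, and NRAS tumors were below all other libraries (NRAS -1.46 ± 0.29 SE, adjusted p = 0.00154; PDGFB -0.17 ± 0.29 SE, adjusted p = 0.641). Gria3 stood at 46.8 to 71.3 FPKM in normal brain, 14.9 to 40.6 in NRAS tumors and 34.3 to 56.7 in PDGFB tumors, and passed in NRAS tumors only (-1.42, against -0.49 in PDGFB tumors, adjusted p = 0.2).

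Gria1 went the other way. This subunit of the hippocampus and cortex, which drives the growth of synapses in plasticity, stood at 101, 143 and 74.3 FPKM in normal brains 1 to 3, 16.2, 83.1, 24.3 and 31.7 in NRAS tumors 1 to 4 and 20.2, 8.26, 12.03 and 10.6 in PDGFB tumors 1 to 4. PDGFB tumors were between 8 and 21 FPKM, and NRAS tumor 2 was above normal brain 3. It fell in PDGFB tumors (-2.98 ± 0.47 SE, adjusted p = 0.000395), more than in NRAS tumors (-1.64 ± 0.47 SE, adjusted p = 0.0106). Gria1 was the only receptor gene higher in NRAS than in PDGFB tumors (log2 difference 1.33 ± 0.44, adjusted p = 0.0428), and NRAS tumor 1 lay below PDGFB tumor 1. That call was lost without any 1 of 9 libraries, with an adjusted p up to 0.106 (without PDGFB tumor 2) and a difference of 0.89 without NRAS tumor 2. Gria1 held 22.7% to 34.7% of the AMPA sum in normal brain, 19.5% to 36.3% in NRAS tumors and 4.58% to 8.09% in PDGFB tumors. Gria2 held 35.9% to 44.2%, 31.02% to 43.3% and 47.2% to 57.4%. In the AMPA makeup the PDGFB tumors thus lay outside the range of both other groups for these 2 subunits, while the NRAS and normal ranges overlapped.

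**Figure D4:**
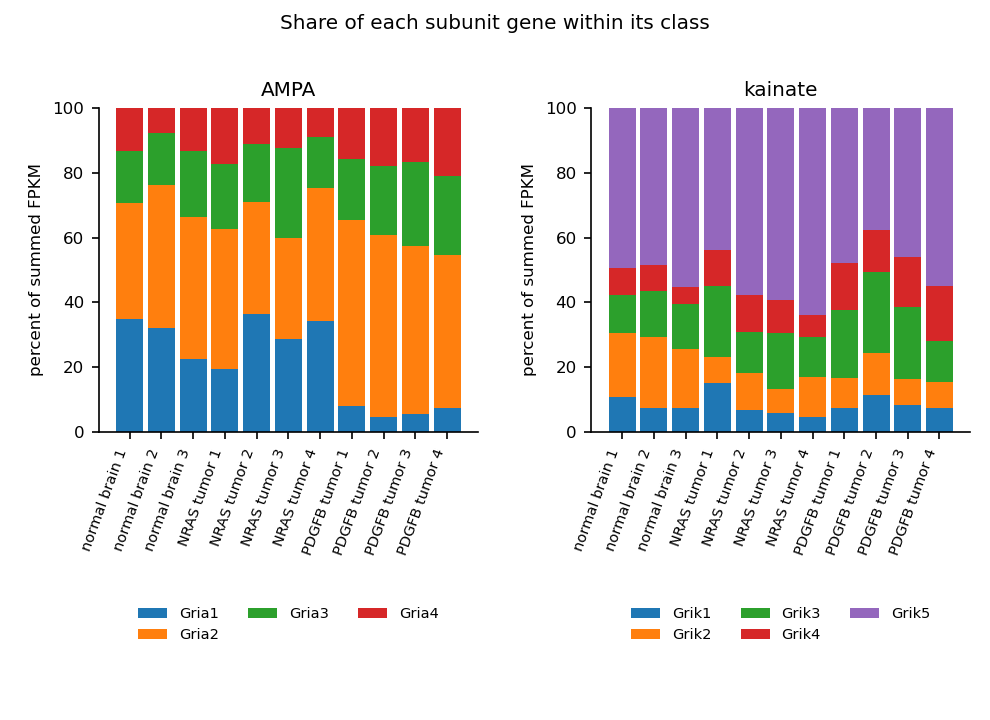
Share of each subunit gene in the summed FPKM of its class (y axis, percent, bars stacked to 100) in each library for AMPA and kainate genes. The Gria1 share is below 9% in all PDGFB tumors and above 19% in all other libraries, and the Grik2 share is lower in every tumor than in every normal brain.

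Gria2 had the highest mean of the AMPA class in every group and differed between the models, although in NRAS tumor 2 Gria1 was above it. The 250 bases before the start of Gria2 are therefore given from RefSeq (GRCm38.p6; chr3:80802836-80803085, minus strand), with capitals for an exact match to the right half-site of the RE1 element (GGACAGCGC, here on the opposite strand).
Gria2: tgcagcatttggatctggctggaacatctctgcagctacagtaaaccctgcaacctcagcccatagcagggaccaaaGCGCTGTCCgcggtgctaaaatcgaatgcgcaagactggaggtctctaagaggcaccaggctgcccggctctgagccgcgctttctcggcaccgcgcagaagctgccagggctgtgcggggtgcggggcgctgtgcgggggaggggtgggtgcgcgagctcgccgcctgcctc
RE1 is the binding element of REST, a repressor of neuronal genes. In windows from 250 bases before to 50 after a start, searched on both strands, this half-site was in 0.405% of all 32851 RefSeq promoters and in 1 of 43 promoters of receptor genes, which stood for 36 of the 52 genes. The left half-site (TTCAGCACC) was in 0.371% of all promoters and in the receptor genes in 1, that of Grm2. Only exact matches were counted. In the Gria2 stretch the capitals are followed by gc and then by ggtgctaaa, which on the opposite strand differs from the left half-site in 1 letter. A match is only a stretch of letters, and no binding was measured.

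Kainate receptors modulate release and excitability, with Grik1 to Grik3 as low-affinity and Grik4 and Grik5 as high-affinity subunits. Grik4 (chr9:42518135-42944493) was the only receptor gene that rose in either model. It stood at 7.04, 8.49 and 5.47 FPKM in normal brains 1 to 3, 4.78, 6.43, 4.06 and 2.38 in NRAS tumors 1 to 4 and 13.6, 9.51, 15.1 and 14.1 in PDGFB tumors 1 to 4. All PDGFB tumors were above all other libraries, NRAS tumor 2 lay within the normal range, and NRAS tumors 1, 3 and 4 lay below it. The log2 fold change in PDGFB tumors was 0.81 ± 0.26 (adjusted p = 0.0188). It did not pass without normal brain 3 (0.67, adjusted p = 0.0835) or without PDGFB tumor 3 (0.74, adjusted p = 0.05). In NRAS tumors it did not pass (-0.60 ± 0.26 SE, adjusted p = 0.0623), but it did, as lower, without NRAS tumor 2 (-0.77, adjusted p = 0.0165). The 250 bases before its start are shown as those of the 1 gene that rose (chr9:42944372-42944621, minus strand, RefSeq GRCm38.p6).
Grik4: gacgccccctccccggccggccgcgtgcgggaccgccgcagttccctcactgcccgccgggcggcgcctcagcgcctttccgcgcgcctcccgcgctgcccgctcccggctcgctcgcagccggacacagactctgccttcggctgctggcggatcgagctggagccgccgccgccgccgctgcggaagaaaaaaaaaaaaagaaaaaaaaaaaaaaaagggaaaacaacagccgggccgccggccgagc
This stretch holds the GC box GGGCGG, a letter run found in 35.7% of all promoter windows and in 22 of the 43 of receptor genes.

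Grik3 stood at 9.86, 15.3 and 14.7 FPKM in normal brains 1 to 3, 9.298, 7.09, 7.01 and 4.197 in NRAS tumors 1 to 4 and 19.9, 18.1, 21.7 and 10.9 in PDGFB tumors 1 to 4. PDGFB tumors 1 to 3 were above the normal brains and PDGFB tumor 4 was among them, while all NRAS tumors were below. It did not pass in PDGFB tumors (0.37 ± 0.27 SE, adjusted p = 0.275) and fell in NRAS tumors (-0.87 ± 0.27 SE, adjusted p = 0.0167), a call lost without normal brain 2 or 3 (adjusted p up to 0.0662), with the number series as a covariate (-0.62, adjusted p = 0.119) and within the first series (adjusted p = 0.08). With a block for replicate number Grik3 passed as higher in PDGFB tumors (0.56, adjusted p = 0.0422). Grik2, the widespread kainate subunit, was the kainate gene that fell in both. It stood at 16.7, 23.8 and 19.2 FPKM in normal brains 1 to 3, 3.49, 6.39, 2.88 and 4.35 in NRAS tumors 1 to 4 and 8.503, 9.38, 7.85 and 6.55 in PDGFB tumors 1 to 4. The groups did not overlap: every NRAS tumor was below every PDGFB tumor, and these were below every normal brain (NRAS -2.01 ± 0.22 SE, adjusted p = 5.55e-05; PDGFB -1.20 ± 0.22 SE, adjusted p = 0.000928). Its share of the kainate sum was 18.2% to 22.2% in normal brain, 7.18% to 12.5% in NRAS tumors and 7.77% to 12.9% in PDGFB tumors. Grik5, the most abundant kainate gene, stood at 41.9 to 58.2 FPKM in normal brain, 18.6 to 32.4 in NRAS tumors and 27.4 to 46.5 in PDGFB tumors. Grik1 stood at 7.82 to 9.22, 1.61 to 6.43 and 6.35 to 8.397. Both fell in NRAS tumors (-1.05 and -1.13) and did not pass in PDGFB tumors (-0.32 and -0.13). With the number series as a covariate, Grik1 was higher in PDGFB tumors (0.89, adjusted p = 0.0479).

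The delta receptors bind cerebellins at synapses rather than glutamate. Grid1 stood at 20.9, 22.8 and 21.7 FPKM in normal brains 1 to 3, 9.45, 14.1, 7.16 and 5.36 in NRAS tumors 1 to 4 and 15.7, 17.2, 18.8 and 15.8 in PDGFB tumors 1 to 4. NRAS tumors were below all other libraries and PDGFB tumors just below the normal brains. Grid1 fell in NRAS tumors (-1.26 ± 0.24 SE, adjusted p = 0.00112) and did not pass in PDGFB tumors (-0.35 ± 0.24 SE, adjusted p = 0.222). With only the groups compared it passed as lower in PDGFB tumors (adjusted p = 0.0196).

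**Figure D5:**
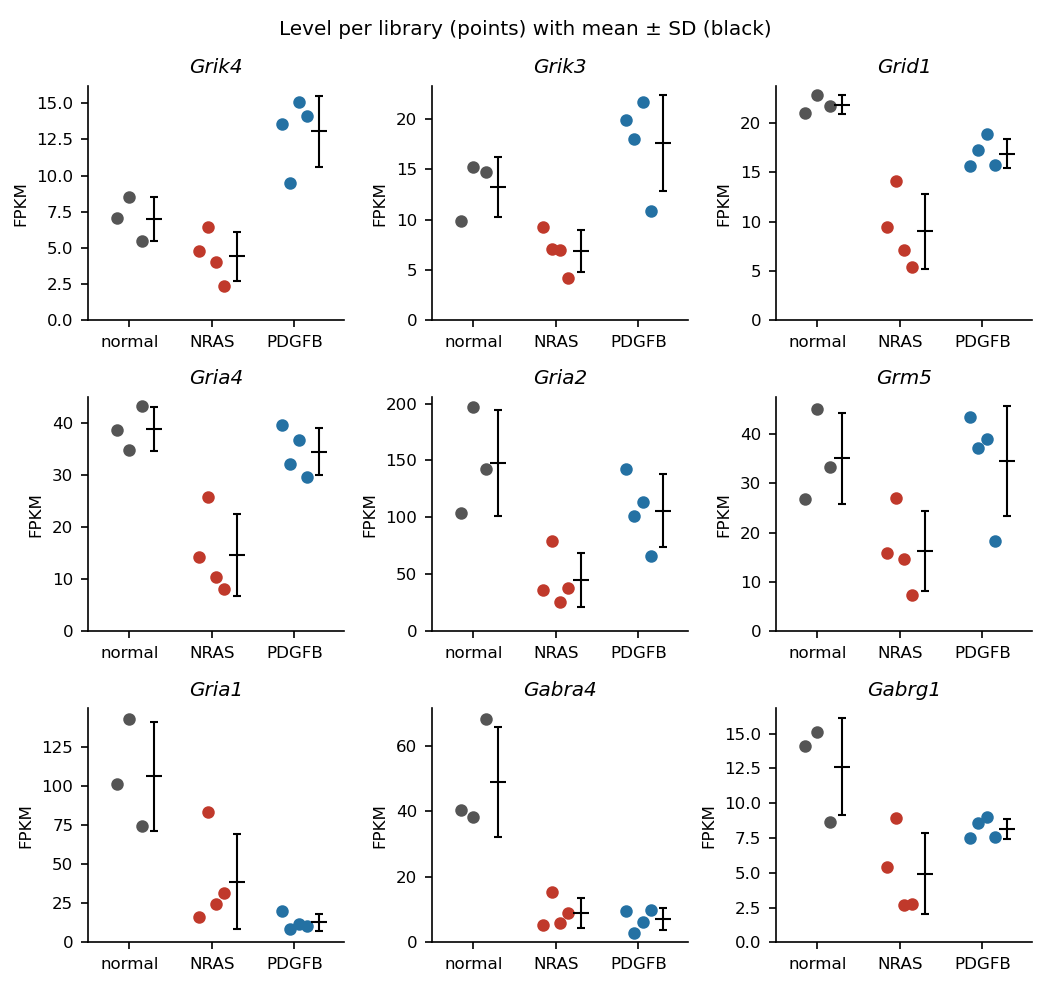
FPKM (y axis, linear from 0) of 9 receptor genes in each library (points, by group) with the mean and SD of the group in black; n = 3 normal brains, 4 NRAS tumors and 4 PDGFB tumors. Grik4 lies above 9 FPKM in every PDGFB tumor and below 9 elsewhere, Gria4 and Gria2 of PDGFB tumors overlap normal brain, and Gria1 and Gabra4 of PDGFB tumors lie below it.

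NMDA receptors need the obligate subunit Grin1, and the Grin2 subunits set their kinetics. All 6 tested NMDA genes fell in both models. Grin1 stood at 82.7, 88.03 and 114 FPKM in normal brains 1 to 3, 8.64, 47.8, 20.2 and 20.3 in NRAS tumors 1 to 4 and 33.4, 12.8, 24.3 and 31.1 in PDGFB tumors 1 to 4. Tumors and normal brains did not overlap (NRAS -2.15 ± 0.46 SE, adjusted p = 0.00237; PDGFB -1.93 ± 0.46 SE, adjusted p = 0.00431). Grin2d, the subunit of immature brain and interneurons, had the smallest adjusted p of the class. It stood at 4.37, 3.66 and 3.296 FPKM in normal brains 1 to 3, 0.501, 1.34, 0.689 and 0.814 in NRAS tumors 1 to 4 and 0.812, 0.594, 0.628 and 1.003 in PDGFB tumors 1 to 4, with no overlap (NRAS -1.39 ± 0.18 SE, adjusted p = 0.000143; PDGFB -1.44 ± 0.18 SE, adjusted p = 0.0001). Grin2a, Grin2b and Grin2c were at 2.33 to 7.18, 1.01 to 4.403 and 9.57 to 11.8 FPKM in normal brain, at 0.302 to 1.02, 0.0699 to 0.453 and 0.435 to 3.603 in NRAS tumors and at 0.118 to 1.71, 0.166 to 1.18 and 0.307 to 3.09 in PDGFB tumors. The low Grin2a and Grin2b values rest on few reads. Grin3a, a subunit that lowers calcium entry, was the NMDA gene with the least change in PDGFB tumors. It stood at 12.99, 11.5 and 9.21 FPKM in normal brains 1 to 3, 3.94, 4.79, 4.02 and 1.44 in NRAS tumors 1 to 4 and 6.71, 4.13, 8.82 and 5.84 in PDGFB tumors 1 to 4, and fell in NRAS tumors (-1.49 ± 0.30 SE, adjusted p = 0.00169). In PDGFB tumors its adjusted p of 0.0499 (-0.76 ± 0.30) was at the threshold and was lost in 15 of 21 other settings, among them leaving out any normal brain or any PDGFB tumor but tumor 3.

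Metabotropic receptors fall into group I, which raises calcium and includes Grm5, and groups II and III, which lower cyclic AMP and act mostly as presynaptic brakes. Grm5 stood at 26.7, 45.02 and 33.3 FPKM in normal brains 1 to 3, 15.8, 27.1, 14.7 and 7.47 in NRAS tumors 1 to 4 and 43.5, 37.1, 38.99 and 18.3 in PDGFB tumors 1 to 4. PDGFB tumors 1 to 3 lay within the normal range and PDGFB tumor 4 below it, and NRAS tumor 2 overlapped normal brain 1. Grm5 fell in NRAS tumors (-1.16 ± 0.39 SE, adjusted p = 0.0225; adjusted p up to 0.0897 without normal brain 2 or 3 or NRAS tumor 4, 0.173 with the number series as a covariate and 0.111 within the first series) and did not pass in PDGFB tumors (-0.06 ± 0.39 SE, adjusted p = 0.906).

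Of groups II and III, Grm4 stood at 9.899, 6.997 and 14.5 FPKM in normal brains 1 to 3, 0.344, 2.09, 0.713 and 1.32 in NRAS tumors 1 to 4 and 1.53, 0.483, 1.09 and 2.99 in PDGFB tumors 1 to 4. Tumors and normal brains did not overlap (NRAS -2.46 ± 0.37 SE, adjusted p = 0.000333; PDGFB -2.22 ± 0.37 SE, adjusted p = 0.000535). Grm2, an autoreceptor of cortical terminals, stood at 9.601, 8.72 and 15.6 FPKM in normal brains 1 to 3, 0.633, 8.73, 1.73 and 4.37 in NRAS tumors 1 to 4 and 0.787, 0.439, 1.24 and 2.804 in PDGFB tumors 1 to 4. NRAS tumor 2 was within the normal range, and the NRAS call (-1.62 ± 0.54 SE, adjusted p = 0.0222) was lost without normal brain 3, NRAS tumor 1 or NRAS tumor 3 (adjusted p up to 0.0854), whereas the PDGFB tumors were all below 3 FPKM (-2.47 ± 0.54 SE, adjusted p = 0.00248). Grm3, which astrocytes also carry, fell from 13.9 to 20.7 FPKM to 1.69 to 7.75 in NRAS and 0.294 to 4.305 in PDGFB tumors (-1.88 and -2.62). Astrocyte marker sums were lower in both models, with 4 of 8 markers called lower in NRAS tumors and 6 in PDGFB tumors. Grm7 and Grm8, presynaptic group III receptors, fell from 19.6 to 20.9 and 6.02 to 7.33 FPKM by log2 fold changes of -1.89 and -1.54 in NRAS and -2.37 and -2.09 in PDGFB tumors.

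The tumor models were then set against each other. Of the 42 genes, 12 were lower in NRAS than in PDGFB tumors, 1 was higher and 29 did not pass, where 26.6% of all genes passed, 12.2% lower and 14.3% higher. The median log2 difference was -0.16, beside -0.04 over all genes. All 5 kainate genes, Gria2, Gria3, Gria4, Grid1, Gabra3 and Grm5 were among the 12. None of the 6 NMDA, 3 glycine or 2 GABA-B genes passed. All 4 NRAS tumors were below all 4 PDGFB tumors for 6 genes (11.6% of all genes tested): Grik2, Grik3, Grik4, Gria4, Grid1 and Gabrq. The reverse held for 0 of the 42 (12.9% of all genes). Of the 6, all but Gabrq, which is low in every tumor, passed. Their log2 differences and adjusted p were -1.42 ± 0.24 (SE) and 0.00224 for Grik4, -1.29 ± 0.27 and 0.00612 for Gria4, -1.24 ± 0.25 and 0.00548 for Grik3, -0.91 ± 0.22 and 0.0122 for Grid1, and -0.81 ± 0.20 and 0.0139 for Grik2.

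Other calls between the models were Gria2 (-1.29 ± 0.34 SE, adjusted p = 0.0166), Gria3 (-0.94 ± 0.29 SE, adjusted p = 0.033), Grik1 (-0.9998 ± 0.27 SE, adjusted p = 0.0204), Grm5 (-1.09 ± 0.36 SE, adjusted p = 0.0429) and Grik5 (-0.73 ± 0.20 SE, adjusted p = 0.0235). In each of 22 other settings, leaving out each library among them, the calls of Gria2, Gria4, Grid1, Grik2, Grik3 and Grik4 were kept, and each of the other 7 was lost in some. Grik1 was lost without NRAS tumor 3 or PDGFB tumor 3 (adjusted p up to 0.0575) and Gria3 without NRAS tumor 1, 3 or 4 or PDGFB tumor 1, 2 or 3 (up to 0.0955). Grik5 was lost without any NRAS or PDGFB tumor but NRAS tumor 2 and PDGFB tumor 2 (up to 0.0682), and Grm5 without any 1 of 9 libraries (up to 0.109). Leaving out NRAS tumor 3 or PDGFB tumor 3 cut the 12 lower genes to 6, NRAS tumor 4 or PDGFB tumor 1 to 7, and NRAS tumor 1 to 8, while without NRAS tumor 2 there were 16. Among those added without NRAS tumor 2 were Gabrg1 (-1.03, adjusted p = 0.0081), Glrb (-0.81, 0.012) and Grin3a (-0.87, 0.0457). Within title numbers 2038 to 2046, with NRAS tumors 3 and 4, 11 were lower and 1 higher. Beside these differences, 6 of the 9 progenitor markers were lower in NRAS than in PDGFB tumors and their sums did not overlap (173 to 852 against 1461 to 1749), among them Pdgfra (72.2 ± 47.7 against 262 ± 61.7 FPKM, mean ± SD, n = 4 each). Of the microglia and macrophage markers 7 of 8 were higher in NRAS tumors (sums of 208 to 508 against 43.3 to 134.7, with no overlap), and 4 of 8 astrocyte markers were higher, with sums that overlapped. The neuron and myelinating oligodendrocyte sums of the models overlapped, and no myelin marker passed. The part of these cell types in the differences was not tested.

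The order of levels also differed. FPKM is scaled by length, so genes can be ranked within a group. In normal brain Gabbr1 led with 185 ± 21.4 (mean ± SD, n = 3), followed among the genes named here by Gria2 (148 ± 46.5), Gria1 (106 ± 34.6), Glrb (96.8 ± 10.5) and Grin1 (94.9 ± 16.8). Each pair of neighbours in this order lay closer than the larger of their SDs. In NRAS tumors the order began with Gabbr1 (49.2 ± 32.5), Gria2 (44.98 ± 23.6), Gria1 (38.8 ± 30.2) and Glrb (27.6 ± 14.5), n = 4, with SDs wider than the steps between them. In PDGFB tumors Gria2 led with 106 ± 31.7 (n = 4), its lowest library at 66.5 above the highest value of the next gene, Gria3 (43.97 ± 9.86). Grik5 (40.9 ± 9.04), Glrb (37.3 ± 8.997), Gabbr1 (37.2 ± 12.3), Gria4 (34.5 ± 4.49) and Grm5 (34.4 ± 11.1) came after, not apart beyond their spread.

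Genes that work with these receptors were taken from 3 fixed lists. Of 66 partner genes tested, 3 rose and 49 fell in NRAS tumors and 4 rose and 49 fell in PDGFB tumors. Over all genes tested, 32% rose and 30.3% fell in NRAS tumors and 29.3% rose and 29.2% fell in PDGFB tumors. The median log2 fold change of the partners was -1.61 and -1.50, beside 0.01 and 0.04 over all genes. At the inhibitory synapse 1 rose and 10 fell of 13 in NRAS tumors and 1 rose and 8 fell in PDGFB tumors. At the excitatory synapse 2 rose and 25 fell of 34 in NRAS tumors and 3 rose and 26 fell in PDGFB tumors. Of 19 genes that make, move or clear the transmitters 14 fell in NRAS tumors and 15 in PDGFB tumors, and none rose. The vesicular glutamate transporter Slc17a6 (-3.30 and -3.27), the vesicular GABA and glycine transporter Slc32a1 (-2.68 and -2.89), the GABA-making enzyme Gad2 (-2.47 and -2.93) and the pentraxin receptor Nptxr (-2.74 and -2.43) were among the lowest (log2 fold changes in NRAS and PDGFB tumors). The chloride exporter Slc12a5, which makes GABA inhibitory in mature neurons, stood at 82.1, 85.2 and 88.95 FPKM in normal brains 1 to 3, 5.36, 33.7, 8.28 and 19.7 in NRAS tumors 1 to 4 and 13.1, 2.71, 12.2 and 14.7 in PDGFB tumors 1 to 4. It fell in both models (NRAS -2.59 ± 0.60 SE, adjusted p = 0.00331; PDGFB -3.08 ± 0.60 SE, adjusted p = 0.00123). The chloride importer Slc12a2 stood at 20.2 to 28.2 FPKM in normal brain, 11.7 to 21.2 in NRAS tumors and 18.5 to 25.4 in PDGFB tumors, and passed in neither (-0.46, adjusted p = 0.0606, and -0.05, adjusted p = 0.844); it was named after its values were seen.

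A few partners rose. Cacng4, an auxiliary AMPA subunit known from progenitors, stood at 16.2, 15.05 and 23.7 FPKM in normal brains 1 to 3, 47.4, 27.4, 17.8 and 7.18 in NRAS tumors 1 to 4 and 157, 112, 161 and 103 in PDGFB tumors 1 to 4. All PDGFB tumors were above 100 FPKM and all other libraries below 48. NRAS tumors 1 and 2 lay above every normal brain and NRAS tumor 4 below. Cacng4 rose in PDGFB tumors (2.80 ± 0.47 SE, adjusted p = 0.000565) and did not pass in NRAS tumors (0.18 ± 0.47 SE, adjusted p = 0.758). Within the first number series, with NRAS tumors 1 and 2, it passed as higher in NRAS tumors (0.97, adjusted p = 0.0459). The models differed (-2.62 ± 0.44 SE, adjusted p = 0.00206). Neto2, an auxiliary kainate subunit, stood at 13.1, 14.3 and 19.6 FPKM in normal brains 1 to 3, 28.6, 36.7, 35.9 and 18.1 in NRAS tumors 1 to 4 and 37.4, 46.8, 41.1 and 29.5 in PDGFB tumors 1 to 4. It rose in both models (NRAS 0.86 ± 0.25 SE, adjusted p = 0.0106; PDGFB 1.26 ± 0.25 SE, adjusted p = 0.00133), with NRAS tumor 4 within the normal range. Its relative Neto1 fell in NRAS tumors (-1.78 ± 0.28 SE, adjusted p = 0.000431), did not pass in PDGFB tumors (-0.47 ± 0.28 SE, adjusted p = 0.172) and was lower in NRAS than in PDGFB tumors (-1.30 ± 0.26 SE, adjusted p = 0.00491). Homer3, a scaffold that links group I metabotropic receptors, stood at 3.099, 3.95 and 2.39 FPKM in normal brains 1 to 3, 11.8, 11.4, 15.2 and 10.4 in NRAS tumors 1 to 4 and 8.44, 12.9, 10.4 and 11.8 in PDGFB tumors 1 to 4 and rose in both (NRAS 1.68 ± 0.19 SE, adjusted p = 6.5e-05; PDGFB 1.52 ± 0.19 SE, adjusted p = 9.81e-05). Gabarap, a trafficking protein of GABA-A receptors that also serves autophagy, rose by less in NRAS tumors (0.57 ± 0.18 SE, adjusted p = 0.0152) and in PDGFB tumors (0.46 ± 0.18 SE, adjusted p = 0.0433). The NRAS call was lost without normal brain 2 or 3 (adjusted p up to 0.0561). A block for replicate number, the number series as a covariate and the first series alone also lost it (up to 0.098). The PDGFB call was lost without normal brain 2 or 3, NRAS tumor 4 or PDGFB tumor 2, 3 or 4 (up to 0.127). It was also lost with no filter, another scaling, the replicate block or the series covariate (up to 0.41).

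Between the models 4 of 66 partner genes were higher and 9 (13.6%) lower in NRAS tumors. Over all genes 14.3% were higher and 12.2% lower, so nothing is read from these counts about the partners as a list. Nptx1, a pentraxin that clusters AMPA receptors, was higher in NRAS tumors (81.1 ± 43.7 against 26.4 ± 8.69 FPKM, mean ± SD, n = 4 each; 1.48 ± 0.37 SE, adjusted p = 0.0133), as were Kctd12, an auxiliary GABA-B subunit (22.3 ± 11.1 against 7.95 ± 1.83; 1.28 ± 0.30 SE, adjusted p = 0.0105), the AMPA partner Shisa9 (5.45 ± 2.53 against 2.299 ± 1.09; 0.97 ± 0.30 SE, adjusted p = 0.0345) and the scaffold Dlg1 (35.5 ± 6.09 against 20.9 ± 2.53; 0.73 ± 0.15 SE, adjusted p = 0.00604). The Shisa9 call was lost without any 1 of 8 libraries (adjusted p up to 0.0671, without PDGFB tumor 2). Shisa7, which speeds GABA-A receptor kinetics, was lower in NRAS tumors (10.8 ± 5.95 against 25.8 ± 5.82; -1.28 ± 0.29 SE, adjusted p = 0.00863). So was Slitrk3, an adhesion protein of inhibitory synapses (6.37 ± 2.88 against 13.7 ± 2.37; -1.06 ± 0.24 SE, adjusted p = 0.00951).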

How the data were processed

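RNA from 3 normal brains, 4 NRAS tumors and 4 PDGFB tumors was sequenced, per the labels' protocols. Per gene and library the authors deposited FPKM values. The submitters' processing notes name TopHat2 2.0.13 and Cufflinks 2.2.1 with mm10, without settings or annotation. Since FPKM is scaled to the library total, abundant transcripts can depress the rest; the upper quartile ran from 13.9 to 14.9 FPKM. Of 24347 rows, 27 with names turned into dates were left out. All 11 libraries entered 1 fit in limma 3.58.1 (R 4.3.3, eBayes with trend) on log2(FPKM + 1). It held the 14491 genes that reached 1 FPKM in 3 or more libraries, two-sided, Benjamini-Hochberg adjustment over all of them and a threshold of 0.05. The fit was tested on simulated data. Subunit shares are descriptions with no test. Positions are from GENCODE M21 (GRCm38, which is mm10).

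Genes given with a value per library were, per comparison, up to 6 highest and 6 lowest fold changes past the threshold whose higher group averaged 5 FPKM or more and whose groups did not overlap, members higher than normal brain, and per class the member with the smallest adjusted p, with up to 4 partner genes per direction; the rule did not ask for others, which were named after their values were seen (Gabra2, Gabrb1, Gabrg1, Gabrg3, Gabrq, Gabbr2, Glra3, Gria2, Gria3, Grik1, Grik5, Grin1, Grin2a, Grin2b, Grin2c, Grm2, Grm3, Grm7, Grm8, Adarb1, Slc12a2 and Pdgfra). For 5 receptor genes values are not reported here, though counts over the family include them. The members and lists were chosen with earlier results of these data known. Other pseudocounts, filters, scalings, fits and left-out libraries were tried as alternatives.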

Additional observations from a re-analysis of the deposited data

Results flagged for a closer look

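In groups of 4 tumors, 1 library stood far from the other 3 for 2 of the genes named here, each time PDGFB tumor 2: Gabrb2 at 3.06 FPKM and Grik5 at 27.4 FPKM, both low. Of 74 groups examined 2 showed this, and chance alone gives about 1 in 20. PDGFB tumor 2 also had the lowest neuron marker sum of the tumors, at 299 FPKM.

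The change against normal brain differed between the models for 12 receptor genes and 8 partner genes, counting only genes named here. This is the same contrast as that of NRAS against PDGFB tumors above, so it is not a further test. Of all 42 receptor genes tested, 1 was higher and 12 lower in NRAS tumors, and of all 66 partner genes 4 were higher and 9 lower. Over all genes tested, 14.3% were higher and 12.2% lower. The calls of Gria2, Gria4, Grid1, Grik2, Grik3 and Grik4 were kept in every other setting, and the other receptor calls were lost in some. The log2 difference, NRAS minus PDGFB tumors, was -0.87 for Gabra3, 1.33 for Gria1, -1.29 for Gria2, -0.94 for Gria3, -1.29 for Gria4, -0.91 for Grid1, -0.9998 for Grik1, -0.81 for Grik2, -1.24 for Grik3, -1.42 for Grik4, -0.73 for Grik5 and -1.09 for Grm5. Of these, 5 did not overlap between the 4 NRAS and 4 PDGFB tumors: Gria4, Grid1, Grik2, Grik3 and Grik4, all lower in NRAS tumors. Over all genes tested, 11.6% were lower in NRAS tumors without overlap and 12.9% higher. Among partner genes the log2 difference was -2.62 for Cacng4, -1.30 for Neto1, -1.28 for Shisa7 and -1.06 for Slitrk3. In the other direction it was 1.48 for Nptx1, 1.28 for Kctd12, 0.97 for Shisa9 and 0.73 for Dlg1.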

How the results depend on the processing

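The count of receptor genes lower in NRAS tumors than in normal brain was 31 to 42 in 22 other settings, with 31 within title numbers 1834 to 1838, 34 of the members left by a filter of 5 FPKM and 42 with no filter. The count lower in PDGFB tumors was 25 to 33 except for 19 under the series covariate (title numbers as 2 classes), which estimates the series from the NRAS tumors alone. The count higher in PDGFB tumors, 1, was 3 with the replicate block, 2 with the series covariate and 0 to 2 when 1 library was left out. With that covariate Grik1 was higher in PDGFB tumors than in normal brain by 0.89 instead of -0.13. Between the models, the 1 higher gene (Gria1) was 0 without a filter, with only the groups compared, with the replicate block and with the series covariate, and 0 to 2 with 1 library left out. The 12 lower genes were 8 with only the groups compared and 6 to 16 with 1 library left out. The cause was not tested. Of the calls against normal brain, 31 of 40 (NRAS) and 19 of 32 (PDGFB) were kept in every setting. Within 1 title number series PDGFB tumors could not be compared with normal brain. Subunit shares were tried only with quantile normalization, where they moved by less than the SD between replicates, and with single libraries left out. Leaving out a single library of so few cannot move a mean by as much as that SD, so nothing is read from it.

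Replicate numbers are shared between groups but are not said to pair libraries. The titles match normal brain 1 with NRAS tumor 2 and normal brain 3 with PDGFB tumor 1, which is 1 match per comparison and too few for a block; deviations of these matched libraries correlated at -0.0829 and 0.127. The replicate block pairs by number and does not follow these matches. Deviations of libraries with the same number correlated at -0.14 to 0.0542 (NRAS and normal), -0.363 to 0.158 (PDGFB and normal) and -0.499 to 0.116 (between the models), and in each comparison 1 library correlated best with its own number. With the replicate block 40 genes were lower in NRAS and 30 in PDGFB tumors, and between the models 10 were lower. With 3 or 4 libraries a group and depth in reads unknown, genes under about 1 FPKM rest on few reads, and a value of 0 can be a gene below detection.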

Other observations

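Receptor genes too low to be tested were given no call. Gabre stood at 1.73, 0.401 and 0.112 FPKM in normal brains 1 to 3, 0.196, 0.267, 0.208 and 0.257 in NRAS tumors 1 to 4 and 0.128, 0.101, 0.0758 and 0.0734 in PDGFB tumors 1 to 4, highest in normal brain 1. Glra1, the alpha subunit of the spinal cord and brainstem, stood at 1.49, 0.285 and 0.859 FPKM in normal brains 1 to 3, 0.0771, 0.0789, 0.2999 and 0.0276 in NRAS tumors 1 to 4 and 0.543, 0.0594, 0.148 and 0 in PDGFB tumors 1 to 4, and the 4 hindbrain and spinal neuron markers summed to at most 2.61 FPKM in any library, with Hoxb5 listed at 0 in all 11. Of the 8 genes not expressed, Gabrr2 had the most even level, 0.262 to 0.491 FPKM in normal brain and 0.177 to 0.485 and 0.285 to 0.63998 in NRAS and PDGFB tumors. Gabra6, the alpha subunit of cerebellar granule cells, was listed at 0 in all but normal brain 3 and NRAS tumor 2. Grm6, a receptor of retinal bipolar cells, was listed at 0 in the 3 normal brains and reached 0.728 FPKM in NRAS tumor 2.

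Member promoters held a median of 59% G and C and 11 CG pairs per promoter window, beside 52.7% and 7 over all 32851 promoters. None of the 43 held the cyclic AMP element TGACGTCA, which 1.79% of all promoters hold, or the AP-1 element TGAGTCA (5.20%). The SOX motif ACAAAG was in 3 of 43 (18.7% of all), and TATAAA in 5 (13.6%). The E-boxes CAGCTG and CATCTG were in 2 and 3 (16.3% and 17.2%).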
